A study of Mus musculus with 48 samples.

Results

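Polyamine synthesis and its antizyme control were followed through 8 genes of mouse liver, chosen by name and found by their Ensembl IDs: Odc1, Amd1, Srm and Sms of synthesis, the antizymes Oaz1 and Oaz2, the antizyme inhibitor Azin1, and Sat1 of catabolism. The set makes up 8 of the 11306 genes listed in the deposited tables, and 8 of the 9445 genes that could be tested in both assays. This set and the gene lists below were chosen with earlier results of these data known, so shares of all genes beside them only describe. Ribosome footprints (mRNA fragments shielded by ribosomes) and total RNA were sequenced from the same 24 liver lysates, each pooled from 2 of 48 male C57BL/6JRj mice aged 11 to 12 weeks. The mice had lived for 2 weeks under 12 h of light and 12 h of darkness, and livers were taken every 2 h under that cycle, with 2 pools at each of 12 zeitgeber times (ZT, hours after lights on, darkness from ZT12). All groups share 1 strain and sex, and the labels name no treatment, so time of day and assay are the contrasts, and replicates are separate pools of different animals. In whole liver, fewer cells of a type and less RNA per cell cannot be told apart.

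Polyamines are small, positively charged molecules that bind nucleic acids and ribosomes, and dividing and regenerating liver is a classic setting in which their synthesis was studied. Ornithine decarboxylase (Odc1) makes putrescine. Adenosylmethionine decarboxylase (Amd1) makes the aminopropyl donor, with which spermidine synthase (Srm) and then spermine synthase (Sms) extend putrescine. Antizyme (Oaz1, Oaz2) binds ornithine decarboxylase and hands it to the proteasome, and antizyme inhibitor (Azin1), a relative of the decarboxylase without its activity, binds antizyme in its place. Spermidine/spermine N1-acetyltransferase (Sat1) marks polyamines for export or oxidation. Polyamines feed back on the translation of several of these mRNAs, through frameshifting on antizyme mRNA and through upstream reading frames on others.

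Of the sequences below, the antizyme and Amd1 stretches carry such known controls, while no element is marked in the Odc1 window. Antizyme mRNA has a stop codon early in its coding sequence, which ribosomes pass by skipping a base. The 30 bases around that stop codon (capitals) were read from GENCODE M21 transcripts on GRCm38, plus strand, at chr10:80828280-80828309 for Oaz1 and chr9:65686257-65686286 for Oaz2.
Oaz1: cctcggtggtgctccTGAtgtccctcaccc
Oaz2: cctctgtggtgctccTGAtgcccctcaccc
The stretches matched at 28 of 30 bases. In Oaz1 the stop followed codon 68 of an antizyme of 227 codons, and in Oaz2 it followed codon 32 of 189 codons. In both, the annotated coding sequence skips base 1 of the stop codon and goes on in the new frame. The deposited value is 1 number per gene, so footprints before and after the shift were not separated.

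For Amd1, the RefSeq promoter window (GRCm38.p6, minus strand, chr10:40302139-40302438, from 250 bases before to 50 after the start site) reaches into the mRNA leader. It holds a reading frame of 6 codons and a stop, bases 14 to 34 after the start site (capitals), known in mammals as an element that responds to polyamines. The Odc1 window (plus strand, chr12:17544623-17544922) is given beside it because both transcripts had a daily rhythm.
Amd1: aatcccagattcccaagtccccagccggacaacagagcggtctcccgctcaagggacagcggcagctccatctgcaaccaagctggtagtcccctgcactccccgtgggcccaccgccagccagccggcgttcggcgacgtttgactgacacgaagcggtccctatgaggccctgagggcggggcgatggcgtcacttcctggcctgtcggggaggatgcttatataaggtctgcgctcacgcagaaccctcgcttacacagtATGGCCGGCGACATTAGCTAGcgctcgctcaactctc
Odc1: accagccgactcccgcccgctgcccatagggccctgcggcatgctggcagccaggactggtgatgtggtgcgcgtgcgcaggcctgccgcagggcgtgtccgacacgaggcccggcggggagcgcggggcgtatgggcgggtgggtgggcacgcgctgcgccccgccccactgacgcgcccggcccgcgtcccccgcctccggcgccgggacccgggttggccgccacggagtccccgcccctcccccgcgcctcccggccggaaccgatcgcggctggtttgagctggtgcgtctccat
On both strands, neither window held CACGTG (found in 7.15% of 32851 promoter windows), TTATGTAA (0.938%), TATAAA (13.6%) or AGGTCA (16.3%). Only these exact letters were searched, so variants of them, such as tatataag in the Amd1 window, were not counted. The table had windows for 6 of the 8 genes, with no entry for Azin1 and Srm. Among the others, an Sms window held CACGTG at position -196 from the start site and AGGTCA, on the other strand, at -18, and the Oaz1 window held TATAAA at -3. Oaz2 and Sat1 windows held none of the 4 motifs. In GENCODE M21, the leader of the main transcript was 590 bases long in Azin1, with 3 upstream AUG codons, and 489 bases in Odc1, with 2. It was 334 bases in Sms, with 4 upstream AUGs, 328 in Amd1, with 1, and 281 in Sat1, with 2. Oaz2 (198 bases), Srm (117 bases) and Oaz1 (74 bases) had no upstream AUG.

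Copies of these genes elsewhere in the genome bear on how far each value can be trusted. Of the 30-base windows of a coding sequence, about the length of a footprint, 100% in Amd1 and in Sms also occurred in annotated transcripts of other genes. The share was 91.0% in Oaz1, 83.0% in Odc1, 63.6% in Oaz2, 42.6% in Sat1 and 18.1% in Srm. Azin1 shared 0 of 1315 windows. How the deposited values treat reads that match several places is not given in the sources used here, so levels and efficiencies of all members but Azin1 are uncertain to that extent. Of the Odc1 copies, AW146154 was itself listed, at 0.886 to 2.32 RPKM in footprints and 1.35 to 7.14 RPKM in total RNA.

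Depth was 13.0 to 44.6 M reads per footprint library and 3.68 to 25.9 M reads per total RNA library, as estimated from the steps of the RPKM values, and lowest in total RNA of ZT18 replicate 2. Approximate reads per library were fewest for Sms (43.9 to 234 in footprints, 30.9 to 167 in total RNA) and Oaz2 (53.0 to 222 in footprints, 32.0 to 229 in total RNA). Hepatocyte markers were high throughout, with Alb at 48569 RPKM or more in footprints and 28493 RPKM or more in total RNA. In 6 of 24 pools, pancreatic acinar markers (16 of 20 listed in footprints, 12 of 20 in total RNA) summed to 312 to 1709 RPKM in footprints and 185 to 891 RPKM in total RNA. In the other 18 pools they summed to 4.47 to 42.1 RPKM in footprints and 5.78 to 26.9 RPKM in total RNA. The 6 pools were both of ZT2, replicate 1 of ZT4 and of ZT6, and replicate 2 of ZT8 and of ZT16. Most of them thus fell in the light phase, from ZT2 to ZT8. Neutrophil markers (S100a8, S100a9 and Lcn2 of a list of 5) summed to 1254 and 1139 footprint RPKM at ZT16 and to 299 in ZT14 replicate 2, against a highest value of 65.5 in other pools. Every count of members called below came out the same without the 6 pools with pancreatic transcripts and without the 3 pools with neutrophil markers.

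Among the 8 members, 4 had a daily rhythm in footprints and the same 4 had one in total RNA: Odc1, Amd1, Srm and Azin1. A gene was called rhythmic when a 24 h wave fitted to its 24 libraries on the log2(RPKM + 0.1) scale had a limma F test with an adjusted p under 0.05 and a peak-to-trough fold of at least 1.5. Of all 9445 tested genes, 16.7% were called in footprints and 15.8% in total RNA by the same rule. The fitted waves of the 4 genes peaked one after another, Azin1 late in the light phase, Amd1 just after dusk, Srm in the early night and Odc1 in the middle of the night. The highest time point means did not follow that order throughout. They were at ZT14 for Amd1 and Srm in both assays and for Odc1 in footprints, and at ZT20 for Odc1 in total RNA. For Azin1 they were at ZT8 in footprints and ZT12 in total RNA. The others, Sms, Oaz1, Oaz2 and Sat1, were not called in either assay. With the 12 time points as separate levels in place of a wave, the same 4 members were called in both assays, against 22.8% of tested genes in footprints and 30.3% in total RNA. In total RNA of that fit, 8 of 8 members had an unadjusted p under 0.05 and 5 an adjusted p under 0.05. Oaz1 was the one held back by the fold threshold alone. The shares of all tested genes at those p levels in that fit were not counted. In the wave fit, 4944 of 9445 tested genes and 6 of 8 members had an unadjusted p under 0.05 in total RNA. Fitted log2 ranges had a median of 0.54 over the members in footprints and 0.57 in total RNA, against 0.30 and 0.33 over all tested genes.

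Odc1, the entry enzyme, was low from ZT4 to ZT10. Odc1 footprint RPKM by day were 18.4 and 12.3 at ZT0, 13.6 and 11.9 at ZT2, 9.94 and 5.12 at ZT4, 6.99 and 8.29 at ZT6, 9.302 and 7.22 at ZT8, and 7.37 and 9.75 at ZT10. Odc1 footprint RPKM by night were 11.8 and 13.4 at ZT12, 18.9 and 15.6 at ZT14, 14.1 and 11.7 at ZT16, 15.6 and 17.1 at ZT18, 13.6 and 16.1 at ZT20, and 11.4 and 11.3 at ZT22. The 8 footprint pools of ZT4 to ZT10 lay at 5.12 to 9.94 RPKM and did not overlap with the other 16, at 11.3 to 18.9 RPKM. Such windows, here and for the genes below, were chosen for each gene from these same values, so they only describe them. The share of all genes that separate in a window chosen this way was not counted. Odc1 total RNA RPKM by day were 91.4 and 70.6 at ZT0, 76.6 and 60.6 at ZT2, 59.4 and 45.8 at ZT4, 48.1 and 45.9 at ZT6, 61.8 and 43.8 at ZT8, and 61.4 and 68.3 at ZT10. Odc1 total RNA RPKM by night were 75.6 and 74.9 at ZT12, 124 and 65.99 at ZT14, 60.7 and 77.2 at ZT16, 92.7 and 97.1 at ZT18, 96.5 and 114 at ZT20, and 74.7 and 76.8 at ZT22. In total RNA the pools of ZT4 to ZT10 (43.8 to 68.3 RPKM) overlapped with the others (60.6 to 124 RPKM), and the pools of ZT14 lay far apart. The fitted rhythm was 1.99-fold in footprints (95% interval 1.54 to 2.57, limma adjusted p = 0.000383) and peaked at ZT18.3 ± 1.41 h (95% half-width). In total RNA it was 1.81-fold (1.46 to 2.23, limma adjusted p = 0.000247), with a peak at ZT18.4 ± 1.35 h. The listed copy AW146154 was not called (1.02-fold in footprints, limma adjusted p = 0.994, and 1.55-fold in total RNA, limma adjusted p = 0.133).

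Amd1, which makes the aminopropyl donor, had the widest fitted 24 h wave of the 8, with intervals that overlapped those of Srm, Odc1 and Azin1. With time points as separate levels, Amd1 spanned 3.33-fold in footprints, against 3.12-fold in Srm. In total RNA of that fit it spanned 2.99-fold, against 3.003-fold in Srm. Amd1 footprint RPKM by day were 18.02 and 16.1 at ZT0, 11.7 and 13.6 at ZT2, 8.26 and 14.2 at ZT4, 12.5 and 16.7 at ZT6, 12.8 and 25.8 at ZT8, and 25.8 and 23.02 at ZT10. Amd1 footprint RPKM by night were 26.1 and 31.7 at ZT12, 34.1 and 35.1 at ZT14, 20.1 and 19.8 at ZT16, 17.9 and 18.9 at ZT18, 14.4 and 11.6 at ZT20, and 11.9 and 8.99 at ZT22. The highest footprint pools were the pair of ZT14, and the lowest were single pools of ZT4 and ZT22. At ZT8 the pools differed most, and replicate 2, the higher, was a pool with pancreatic transcripts. Over the 4 times with 1 such pool, however, that pool was the higher in only 1 for footprints and in 2 for total RNA. Amd1 total RNA RPKM by day were 39.9 and 42.3 at ZT0, 27.97 and 24.6 at ZT2, 20.9 and 31.8 at ZT4, 27.2 and 33.2 at ZT6, 36.9 and 46.8 at ZT8, and 59.2 and 42.00 at ZT10. Amd1 total RNA RPKM by night were 56.5 and 66.5 at ZT12, 74.6 and 65.8 at ZT14, 41.8 and 56.5 at ZT16, 34.99 and 56.5 at ZT18, 36.3 and 28.3 at ZT20, and 26.02 and 20.99 at ZT22. The mean of total RNA was also highest at ZT14 and lowest at ZT22, and the lowest single pools were again of ZT4 and ZT22. The mean at ZT14 was 34.6 ± 0.719 footprint RPKM and at ZT22 10.4 ± 2.03 (SD, n = 2 each). The fitted rhythm was 2.43-fold in footprints (1.84 to 3.20, limma adjusted p = 5.38e-05), with a peak at ZT12.8 ± 1.19 h. In total RNA it was 2.29-fold (1.78 to 2.96, limma adjusted p = 4.41e-05), with a peak at ZT13.3 ± 1.17 h.

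Srm, which makes spermidine, was lowest at ZT6 and highest at ZT14 in both assays. Srm footprint RPKM by day were 22.3 and 25.5 at ZT0, 23.4 and 26.2 at ZT2, 17.4 and 13.3 at ZT4, 12.7 and 15.1 at ZT6, 26.6 and 21.3 at ZT8, and 27.4 and 18.7 at ZT10. Srm footprint RPKM by night were 34.9 and 34.9 at ZT12, 47.5 and 39.7 at ZT14, 30.1 and 32.6 at ZT16, 29.8 and 34.6 at ZT18, 20.1 and 25.9 at ZT20, and 17.3 and 15.2 at ZT22. The 8 footprint pools of ZT12 to ZT18, a window chosen from these values, lay at 29.8 to 47.5 RPKM. They did not overlap with the other 16 (12.7 to 27.4 RPKM). Srm total RNA RPKM by day were 18.8 and 15.7 at ZT0, 16.7 and 16.3 at ZT2, 14.4 and 11.6 at ZT4, 9.195 and 10.7 at ZT6, 19.6 and 15.1 at ZT8, and 21.5 and 18.4 at ZT10. Srm total RNA RPKM by night were 24.6 and 24.3 at ZT12, 32.7 and 27.6 at ZT14, 21.2 and 21.6 at ZT16, 22.5 and 27.8 at ZT18, 18.5 and 23.05 at ZT20, and 17.2 and 17.6 at ZT22. In total RNA the same 8 pools (21.2 to 32.7 RPKM) overlapped slightly with the rest (9.20 to 23.05 RPKM). The fitted rhythm was 2.06-fold in footprints (1.57 to 2.71, limma adjusted p = 0.000491), with a peak at ZT15.0 ± 1.45 h. In total RNA it was 2.00-fold (1.64 to 2.45, limma adjusted p = 1.96e-05), with a peak at ZT15.8 ± 1.10 h. Srm was the only member with more footprint than total RNA RPKM in most pools, and the ratio fell below 1 in 1 of 24 pools.

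Azin1, which binds antizyme, was the earliest to peak. Azin1 footprint RPKM by day were 12.5 and 7.999 at ZT0, 13.6 and 13.1 at ZT2, 12.8 and 10.3 at ZT4, 14.4 and 14.6 at ZT6, 19.3 and 22.2 at ZT8, and 16.8 and 14.8 at ZT10. Azin1 footprint RPKM by night were 19.7 and 14.5 at ZT12, 19.5 and 15.2 at ZT14, 12.6 and 13.04 at ZT16, 13.95 and 12.5 at ZT18, 15.5 and 12.5 at ZT20, and 11.2 and 8.81 at ZT22. Footprints were highest at ZT8 and lowest at ZT22 and ZT0, and the pools of ZT8 to ZT14 (14.5 to 22.2 RPKM) overlapped with the rest (7.999 to 15.5 RPKM). Azin1 total RNA RPKM by day were 44.6 and 40.3 at ZT0, 43.2 and 45.7 at ZT2, 45.1 and 40.1 at ZT4, 46.1 and 51.2 at ZT6, 64.5 and 63.3 at ZT8, and 60.8 and 55.9 at ZT10. Azin1 total RNA RPKM by night were 62.1 and 66.7 at ZT12, 65.1 and 52.4 at ZT14, 47.99 and 46.5 at ZT16, 49.8 and 52.03 at ZT18, 43.7 and 42.4 at ZT20, and 33.5 and 27.4 at ZT22. In total RNA the 8 pools of ZT8 to ZT14, a window chosen from these values, lay at 52.4 to 66.7 RPKM. That was just above the other 16 (27.4 to 52.0 RPKM). The fitted rhythm was 1.63-fold in footprints (1.34 to 1.97, limma adjusted p = 0.000771), with a peak at ZT10.8 ± 1.51 h. In total RNA it was 1.66-fold (1.44 to 1.91, limma adjusted p = 1.21e-05), with a peak at ZT11.0 ± 1.06 h. No near-identical copy of Azin1 was found.

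**Figure D1:**
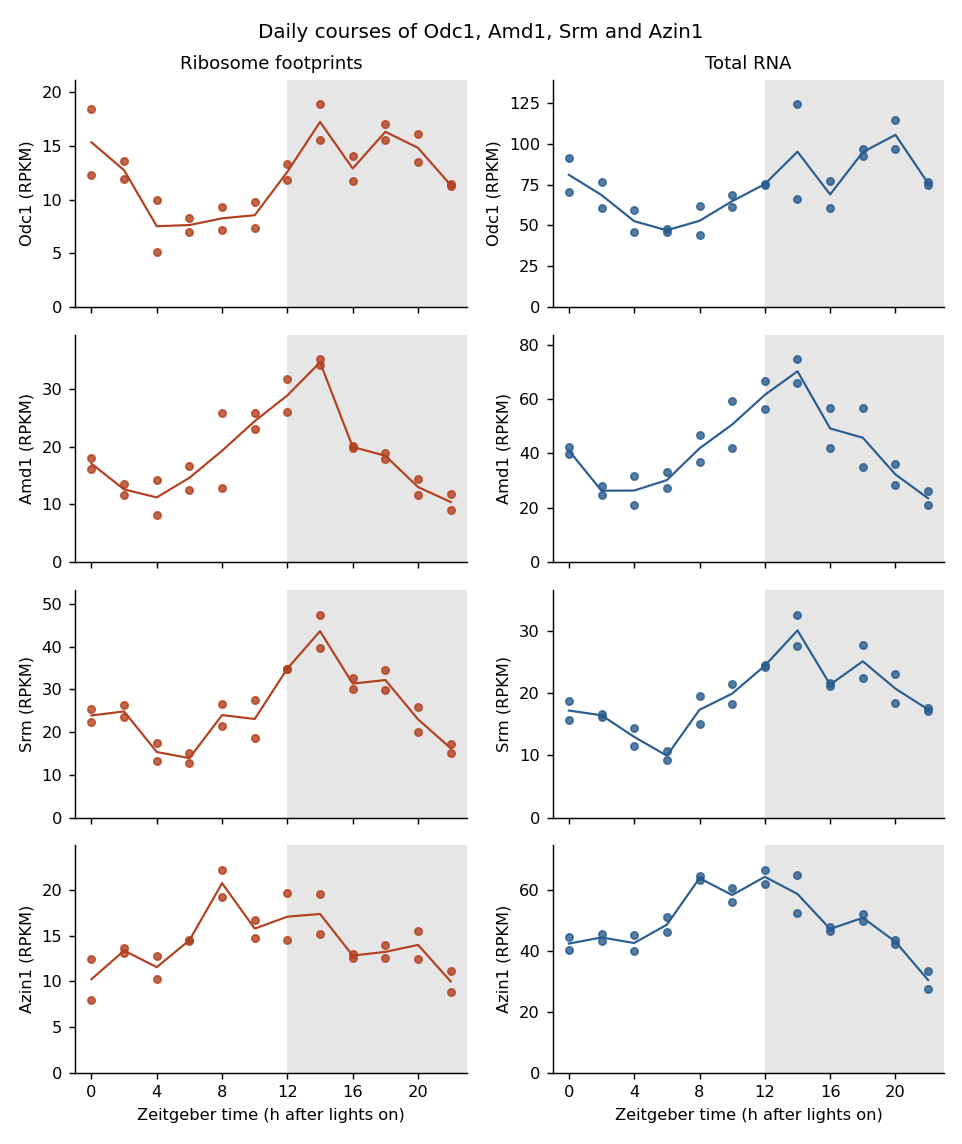
RPKM (vertical axes, from 0) against zeitgeber time in hours for Odc1, Amd1, Srm and Azin1, with footprints on the left and total RNA on the right. Each point is a pool, lines join the means of 2 pools, and grey marks darkness. The highest means were at ZT14 for Amd1 and Srm in both assays, at ZT8 for Azin1 footprints, and at ZT14 for Odc1 footprints with a second rise to ZT18.

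Intervals of the fitted peak times show how far the 4 genes can be ordered. In footprints the interval of Odc1 (ZT16.9 to ZT19.7) did not overlap with those of Srm (ZT13.6 to ZT16.4), Amd1 (ZT11.6 to ZT13.99) or Azin1 (ZT9.31 to ZT12.3), whereas Srm and Amd1, and Amd1 and Azin1, overlapped. In total RNA the 4 intervals did not overlap: ZT17.0 to ZT19.7 for Odc1, ZT14.7 to ZT16.9 for Srm, ZT12.12 to ZT14.5 for Amd1 and ZT9.94 to ZT12.05 for Azin1. The differences between peaks were not tested in other ways. Footprint and total RNA peaks of a gene differed by less than an hour in each case, from 0.05 h earlier in footprints for Odc1 to 0.78 h earlier for Srm, within the half-widths above.

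**Figure D2:**
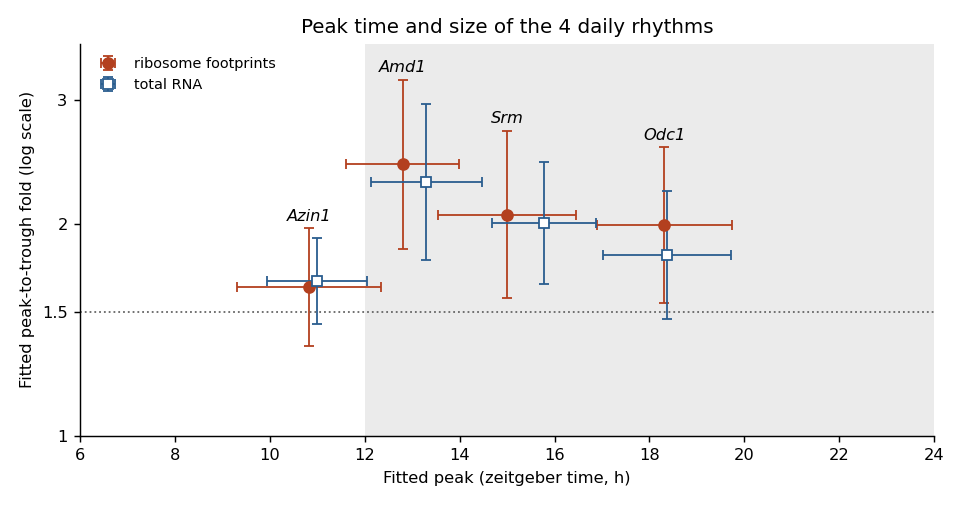
Fitted peak-to-trough fold (vertical axis, log scale) against fitted peak time in zeitgeber hours for the 4 rhythmic genes. Filled circles are footprints, open squares total RNA, bars are 95% intervals, the dotted line is the 1.5-fold threshold and grey marks darkness. The 4 genes lie between ZT10.8 and ZT18.4, each with both assays close together.

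Both antizymes had narrow fitted 24 h waves, with 95% intervals that ended below 1.5-fold. Oaz1, the major antizyme, had 80.1 to 134 RPKM in footprints (median 97.2) and 353 to 535 RPKM in total RNA (median 436). Oaz1 footprint RPKM by day were 95.2 and 101 at ZT0, 100.3 and 98.5 at ZT2, 96.3 and 101 at ZT4, 129 and 104 at ZT6, 109 and 84.3 at ZT8, and 80.1 and 134 at ZT10. Oaz1 footprint RPKM by night were 103 and 83.2 at ZT12, 81.1 and 82.9 at ZT14, 80.9 and 81.8 at ZT16, 88.8 and 103 at ZT18, 88.02 and 95.5 at ZT20, and 98.2 and 118 at ZT22. Footprints of the pools of ZT10 lay farthest apart, and those of ZT14 and ZT16 were low and close together. Oaz1 total RNA RPKM by day were 423 and 397 at ZT0, 439 and 455 at ZT2, 464 and 495 at ZT4, 461 and 437 at ZT6, 453 and 444 at ZT8, and 436 and 459.7 at ZT10. Oaz1 total RNA RPKM by night were 417 and 393 at ZT12, 353 and 360.4 at ZT14, 358 and 372 at ZT16, 411 and 412 at ZT18, 431 and 477 at ZT20, and 535 and 523 at ZT22. Total RNA was low at ZT14 and ZT16 in both pools. The highest mean in total RNA was 529 ± 8.85 RPKM at ZT22 and the lowest 357 ± 5.41 RPKM at ZT14 (SD, n = 2 each). Its fitted range was 1.21-fold in footprints (1.05 to 1.41, limma adjusted p = 0.0838) and 1.22-fold in total RNA (1.10 to 1.36, limma adjusted p = 0.0113, peak ZT2.3 ± 2.05 h). In total RNA Oaz1 thus passed the p threshold and missed the fold threshold. With time points as separate levels, Oaz1 total RNA again varied with time, at 1.48-fold (limma adjusted p = 0.000875), just under the fold threshold. Oaz1 footprints spanned 1.42-fold in that fit (limma adjusted p = 0.473). Oaz2, a second antizyme of lower level, had 5.97 to 10.4 RPKM in footprints (median 8.53) and 13.2 to 24.5 RPKM in total RNA (median 19.4). The fitted range of Oaz2 was 1.15-fold in footprints (1.00 to 1.35, limma adjusted p = 0.287) and 1.17-fold in total RNA (1.00 to 1.41, limma adjusted p = 0.328). With time points as separate levels, Oaz2 spanned 1.53-fold in footprints (limma adjusted p = 0.224) and 1.52-fold in total RNA (limma adjusted p = 0.0919).

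Sms, the last enzyme of synthesis, had the lowest level of the 8, at 2.22 to 4.77 RPKM in footprints (median 3.20) and 3.65 to 8.39 RPKM in total RNA (median 5.57). Its range was 1.05-fold in footprints (1.00 to 1.31, limma adjusted p = 0.917) and 1.19-fold in total RNA (1.00 to 1.48, limma adjusted p = 0.327). Sat1, the acetyltransferase, had 22.1 to 61.9 RPKM in footprints (median 30.8) and 42.3 to 87.3 RPKM in total RNA (median 63.6). The highest pool was ZT10 replicate 2 in both assays, while replicate 1 of that time had 24.1 footprint RPKM and 63.8 total RNA RPKM. The fitted range of Sat1 was 1.30-fold in footprints (1.00 to 1.70, limma adjusted p = 0.216) and 1.32-fold in total RNA (1.13 to 1.56, limma adjusted p = 0.0183, peak ZT9.8 ± 2.201 h), under the fold threshold.

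**Figure D3:**
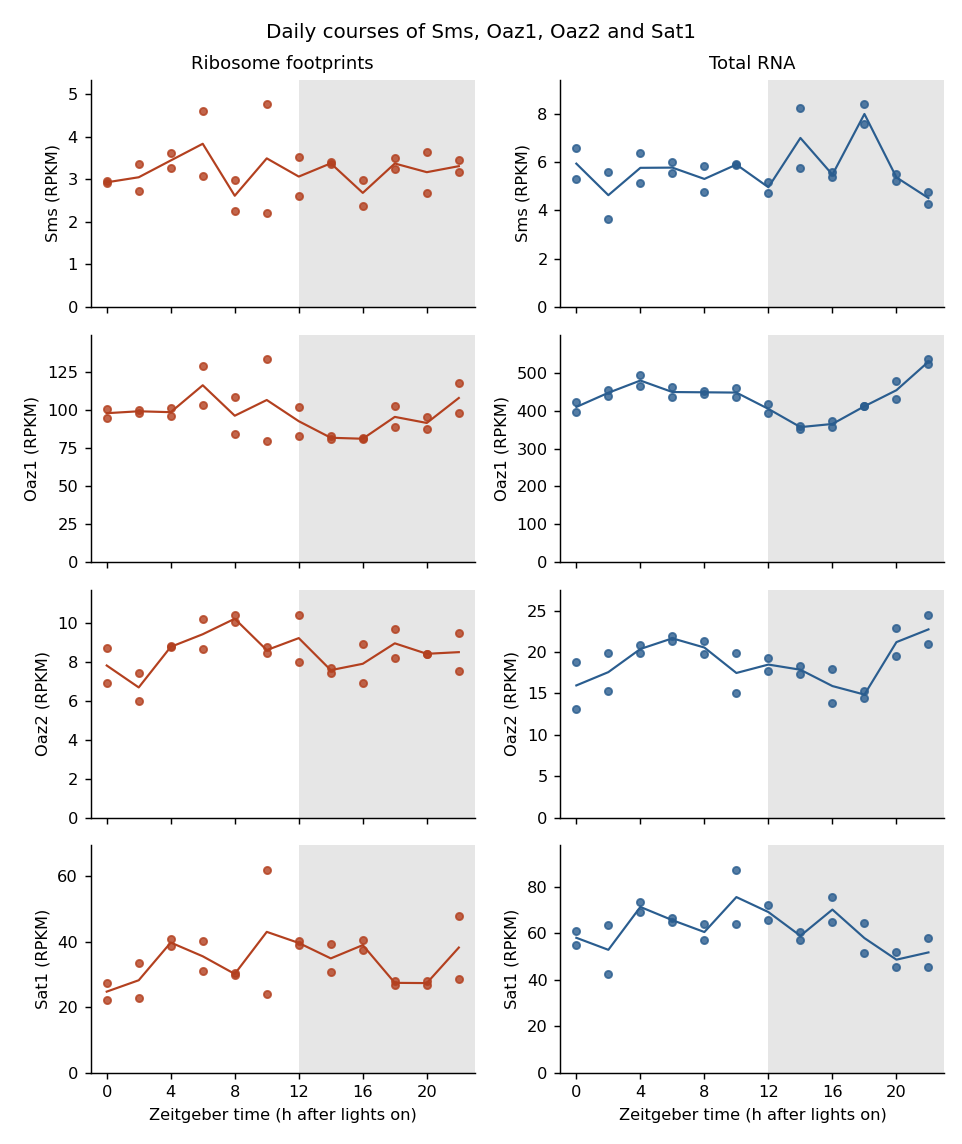
RPKM (vertical axes, from 0) against zeitgeber time in hours for Sms, Oaz1, Oaz2 and Sat1, with footprints on the left and total RNA on the right. Each point is a pool, lines join the means of 2 pools and grey marks darkness. Oaz1 total RNA stood lowest at ZT14 and ZT16 and highest at ZT22, and the pools of ZT10 lay far apart for Sat1 footprints.

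In footprint RPKM, a level per length, the order was Oaz1, Sat1, Srm, Amd1, Azin1, Odc1, Oaz2 and Sms. Oaz1 lay above Sat1 in 24 of 24 pools, by 1.55 ± 0.33 log2 units (SD), and Oaz2 above Sms in 24 of 24, by 1.42 ± 0.33. The neighbours in between changed places in some pools, from Srm over Amd1 in 20 of 24 to Azin1 over Odc1 in 15 of 24. In total RNA the order was Oaz1, Odc1, Sat1, Azin1, Amd1, Srm, Oaz2 and Sms, with Srm over Oaz2 in 13 of 24 pools. Odc1 thus stood in place 6 in footprints and place 2 in total RNA, while Srm stood in place 3 in footprints and place 6 in total RNA.

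Low mean efficiency marked Odc1, Oaz1 and Azin1, the decarboxylase and the pair of proteins that bind around it. Efficiency is the log2 ratio of footprints to total RNA after each library was centred on its median gene. A gene was called when limma's treat test put it at least 2-fold above or below 0 at an adjusted p under 0.05. Of the 8 members, 3 were called low and 0 high, against 6.86% of tested genes called low (648) and 6.82% called high (644). With 0 set instead at the median of the fitted ratios, 935 genes were called low and 379 high, with the same 3 and 0 members. The median efficiency of all tested genes was 0.20 on this scale, and that of the members was -0.61.

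Odc1 had an efficiency of -2.07 (95% interval -2.24 to -1.91, limma adjusted p = 9.98e-16). Only 107 of the 9445 genes had a lower value. Its footprint to total RNA ratio was 0.112 at the lowest, 0.161 at the median and 0.236 at the highest of 24 pools, so every pool lay low. Oaz1 had an efficiency of -1.62 (-1.72 to -1.53, limma adjusted p = 1.06e-16), with ratios of 0.183 to 0.291. This is 1 value for the gene, so footprints before and after its early stop codon, after codon 68 of 227, were not separated. Azin1 had -1.27 (-1.39 to -1.15, limma adjusted p = 0.000235), with ratios of 0.199 to 0.354, and 5.92% of tested genes had a lower efficiency. Of these 3, Azin1 had no near-identical copy, whereas copies share most windows of Odc1 and Oaz1, and their part in the low values was not tested.

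The other members lay within 2-fold of the median gene. Amd1 had an efficiency of -0.63 (-0.82 to -0.43) and Oaz2 one of -0.59 (-0.71 to -0.47). Sat1 had -0.35 (-0.51 to -0.19) and Sms -0.28 (-0.44 to -0.13). Srm was the exception on the high side, at 0.90 (0.73 to 1.08), above 86.0% of tested genes, with ratios of 0.862 to 1.62. For each of these 5 the adjusted p of the treat test was 1. Oaz1 lay 1.04 log2 units below Oaz2 on average, in 24 of 24 pools. Copies share 91.0% of the Oaz1 windows and 63.6% of the Oaz2 windows. The early stop follows codon 68 of 227 in Oaz1 and codon 32 of 189 in Oaz2. The part of the copies and of the stop position in that difference was not tested. In order of efficiency, Srm stood above Sms and Amd1 above Azin1 in 24 of 24 pools, while Sms and Sat1 (14 of 24) and Oaz2 and Amd1 (13 of 24) could not be ordered beyond their spread.

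**Figure D4:**
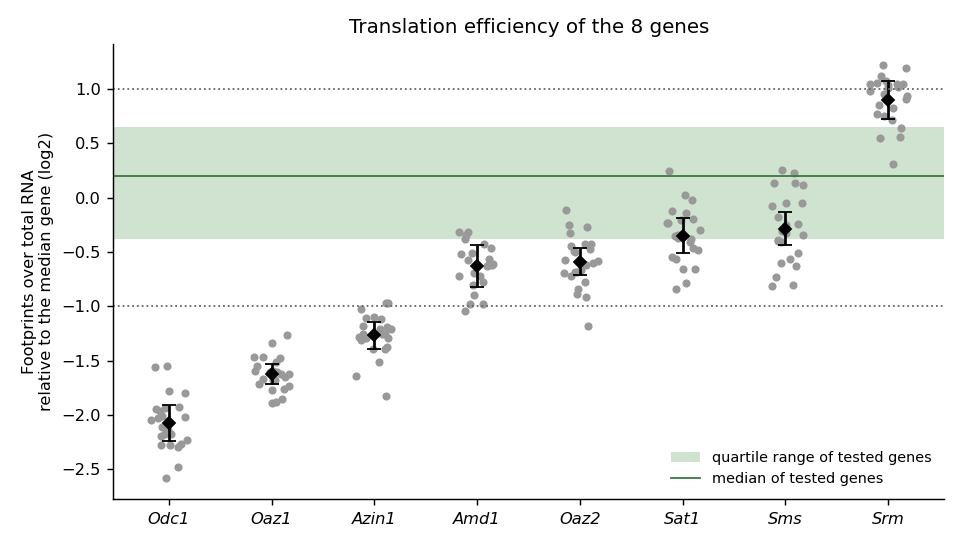
Log2 ratio of footprints to total RNA relative to the median gene of each library (vertical axis) for the 8 genes, from lowest to highest mean. Grey points are 24 pools, diamonds are means with 95% intervals, dotted lines mark 2-fold, and the green band and line are the quartile range and median of the tested genes. All pools of Odc1 and Oaz1 lie below -1, and all pools of Srm lie above 0.

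Efficiency showed no daily rhythm that passed the test in any of the 8. In limma's test of the difference between the 24 h waves of the assays, called at an adjusted p under 0.05 with no threshold on the fold, 0 of 8 members were called, against 0.371% of tested genes (35). At an unadjusted p under 0.05 the count was also 0 of 8, against 1041 of all tested genes, and the smallest unadjusted p was 0.322, for Oaz2. With footprint and total RNA libraries paired by pool, 0 of 8 members were called again, against 3.23% of tested genes (305), with 0 at an unadjusted p under 0.05. With time points as separate levels, 0 of 8 were called, against 0.413%, and 0 of 8 had an unadjusted p under 0.05. In the paired fit, the 24 h wave of efficiency was 1.10-fold in Odc1 (1.00 to 1.36), 1.07-fold in Oaz1 (1.00 to 1.24), 1.03-fold in Azin1 (1.00 to 1.22) and 1.13-fold in Amd1 (1.00 to 1.34). It was 1.16-fold in Srm (1.00 to 1.39), 1.201-fold in Oaz2 (1.00 to 1.45), 1.07-fold in Sat1 (1.00 to 1.32) and 1.25-fold in Sms (1.00 to 1.61). These intervals cover the wave alone. Highest over lowest time point efficiency, with time points as separate levels, was 1.44-fold in Odc1, 1.28-fold in Oaz1, 1.39-fold in Azin1, 1.22-fold in Amd1 and 1.61-fold in Srm. It was 1.61-fold in Oaz2, 1.69-fold in Sat1 and 1.72-fold in Sms, each without passing the test.

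With Odc1 cycling and Oaz1 in a narrower range, their ratio differed over the day. In RPKM, Oaz1 exceeded Odc1 4.29-fold to 19.8-fold in footprints (median 8.26) and 2.84-fold to 10.8-fold in total RNA (median 5.82). The mean footprint ratio was highest at ZT6, at 15.5, and lowest at ZT14, at 4.80. In total RNA it was highest at ZT6, at 9.56, and lowest at ZT14, at 4.15. Azin1 footprints were 0.220 of Oaz1 footprints at ZT8 and 0.0942 at ZT22, the highest and lowest means. These ratios restate the courses above and were not tested on their own.

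**Figure D5:**
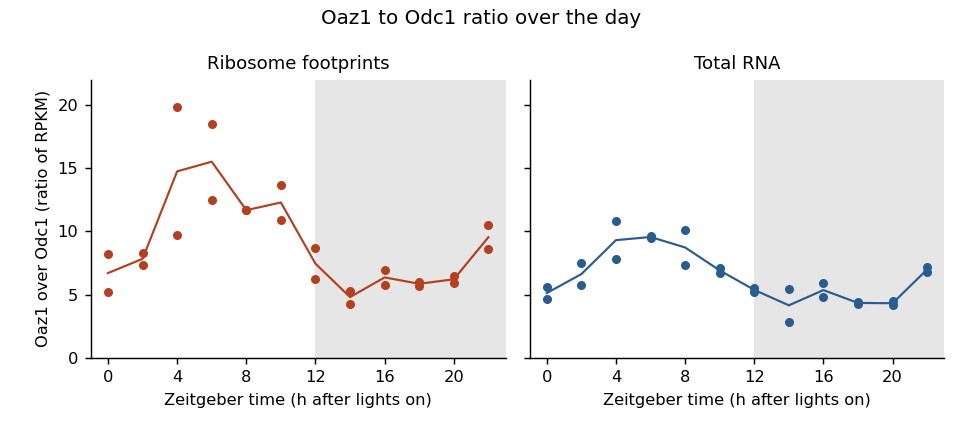
Ratio of Oaz1 to Odc1 RPKM (vertical axis, from 0) against zeitgeber time in hours, in footprints on the left and in total RNA on the right. Each point is a pool, lines join the means of 2 pools and grey marks darkness. Both ratios were highest at ZT6 (15.5 in footprints, 9.56 in total RNA) and lowest at ZT14 (4.80 in footprints, 4.15 in total RNA).

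Several courses had more than 1 rise a day, and a 12 h wave was added to the fit. By limma's F test, 0 of 8 members were called in footprints, against 1.49% of tested genes, and 0 of 8 in total RNA, against 1.41%. At an unadjusted p under 0.05 there were 3 in footprints (Srm, Oaz2 and Amd1), against 2044 of 9445 tested genes, and 2 in total RNA (Oaz1 and Srm), against 2495 of 9445. The largest 12 h range was that of Srm in footprints, 1.47-fold (1.17 to 1.86, limma adjusted p = 0.0935). It passed both thresholds without ZT8 replicate 1 (limma adjusted p = 0.0299), and adjusted p lay between 0.0299 and 0.169 over the 24 fits that left out a pool.

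Among lists of genes that supply, move and use polyamines, each held 0 to 2 rhythmic genes in an assay. Of all tested genes, 16.7% were called rhythmic in footprints and 15.8% in total RNA. In mean efficiency 6.86% were called low and 6.82% high, and 3.23% were called for a rhythm of efficiency in the paired fit. The lists are short, and their counts, here and below, were not tested against these shares. Of the polyamine transport list, 6 of 8 genes were tested, and 2 cycled in footprints and 1 in total RNA. Slc7a2, a carrier of arginine and ornithine, cycled 2.50-fold in footprints (1.81 to 3.47, limma adjusted p = 0.000245) with a peak at ZT8.7 and 2.34-fold in total RNA (1.70 to 3.21, limma adjusted p = 0.000453). Gpc1, a heparan sulfate proteoglycan, cycled 1.65-fold in footprints (1.32 to 2.07, limma adjusted p = 0.00226) and was not called in total RNA (1.21-fold, limma adjusted p = 0.361). Gpc1 efficiency had no called rhythm, paired by pool (limma adjusted p = 0.164) or unpaired (limma adjusted p = 0.614). The lysosomal polyamine exporter Atp13a2 (efficiency -1.26, limma adjusted p = 8.34e-05) and its relative Atp13a3 (-2.17, limma adjusted p = 6.90e-30) were called low, and Slc3a2, an amino acid carrier subunit, was called high (1.41, limma adjusted p = 2.93e-12). With libraries paired by pool, Atp13a3 was called for a rhythm of efficiency, at 1.39-fold (limma adjusted p = 0.00772), but not without the pairing (limma adjusted p = 0.0593).

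Of the ornithine list, 4 of 7 genes were tested with limma, with 1 called in footprints and 0 in total RNA (16.7% and 15.8% of all tested genes). In total RNA, 3 of the 4 had an unadjusted p under 0.05, as did 4944 of all 9445 tested genes. Arg1, the arginase that releases ornithine, cycled 1.55-fold in footprints (1.34 to 1.78, limma adjusted p = 7.15e-05) with a peak at ZT15.2, and 1.26-fold in total RNA (limma adjusted p = 0.0328), under the fold threshold. Arg1 efficiency had no called rhythm, paired by pool (limma adjusted p = 0.125) or unpaired (limma adjusted p = 0.562). Of the methionine list, 11 of 11 were tested, with 2 called in footprints and 1 in total RNA, against the same shares of all tested genes. Ahcy, which clears adenosylhomocysteine, cycled 1.91-fold in footprints (1.60 to 2.27, limma adjusted p = 8.56e-06) and 1.67-fold in total RNA (1.501 to 1.86, limma adjusted p = 1.26e-07). Mat1a, the liver adenosylmethionine synthetase, cycled 1.62-fold in footprints (1.27 to 2.05, limma adjusted p = 0.00571). Mat1a efficiency had no called rhythm, paired by pool (limma adjusted p = 0.236) or unpaired (limma adjusted p = 0.989). In total RNA Mat1a stayed under the fold threshold, at 1.48-fold (limma adjusted p = 0.0286). Its paralog Mat2a stayed under it in both assays, with ranges of 1.49-fold for footprints and 1.37-fold for transcripts. Adi1, an enzyme of methionine salvage, was called high in efficiency (1.822, limma adjusted p = 7.91e-29), as was Otc, which makes citrulline from ornithine (1.17, limma adjusted p = 2.89e-05). Slc25a15, the mitochondrial ornithine carrier, was called for a rhythm of efficiency with libraries paired by pool, at 1.25-fold (limma adjusted p = 0.0296), but not without the pairing (limma adjusted p = 0.544).

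The hypusine list concerns Eif5a, the translation factor that carries a residue made from spermidine. Of its 4 genes, 3 were tested and limma called 0 in either assay. At an unadjusted p under 0.05 there was 1 in footprints (Eif5a) and 1 in total RNA (Dhps), where 5085 of 9445 tested genes reached that level in footprints and 4944 in total RNA. Eif5a itself had a high efficiency, 1.94 (1.88 to 2.01, limma adjusted p = 1.89e-29). Of the catabolism and paralog list, 3 of 7 were tested (Paox, Sat2 and Agmat) and limma called 0 in any comparison. At an unadjusted p under 0.05 there were 1 (Paox) in footprints and 2 (Paox and Agmat) in total RNA, against the same shares of tested genes. Of 6 genes of the Myc network, known regulators of Odc1 transcription, 1 cycled in footprints and 2 in total RNA. Of all tested genes, 16.7% and 15.8% did. Mxi1 cycled 1.83-fold in footprints (limma adjusted p = 0.00163), and Max 2.15-fold (0.000306) and Mxd1 1.66-fold (0.0462) in total RNA. Mxi1 efficiency had no called rhythm, paired by pool (limma adjusted p = 0.185) or unpaired (limma adjusted p = 0.333). Nor did Mxd1 efficiency, paired (limma adjusted p = 0.623) or unpaired (limma adjusted p = 0.864). Mnt was called high in efficiency (1.38, limma adjusted p = 0.0286) and Mxi1 low (-1.29, limma adjusted p = 0.00201), and Max was called for a rhythm of efficiency with libraries paired by pool, at 2.12-fold (limma adjusted p = 0.0382), but not without the pairing (limma adjusted p = 0.0682). Myc itself was not called in footprints (1.17-fold, 1.00 to 2.58) or in total RNA (1.84-fold, 1.00 to 3.73), with intervals too wide to exclude a rhythm of the size seen in Odc1. As a check on the labels of time, 9 of 9 clock genes were called in both assays, with Arntl at ZT23.1 and Dbp at ZT11.0 in footprints.

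Genes whose 12 time point means were most like those of a rhythmic member were listed by Pearson r over 12 time points. For Odc1 they were Nolc1 (r = 0.96), Ppp1r3b (0.95) and Esrra (0.94) in footprints, and Mrpl15, Fam162a and Ppp1r3b in total RNA (0.90, 0.90 and 0.89). For Amd1 they included E130309D02Rik (0.95) and Dhx9 (0.95) in footprints, and 3110001I22Rik, Zfp91 and Cflar in total RNA (0.96 each). For Srm they were Aimp2 (0.98), Sfpq (0.96) and Lrrc28 (0.95) in footprints, and Thrsp, Rap2a and Pgm2l1 in total RNA (0.92 each). For Azin1 they were Gadd45a (0.90), Ugp2 (0.88) and Adtrp (0.88) in footprints, and Ugp2, Tdo2 and Slco1b2 in total RNA (0.98, 0.96 and 0.96). Ppp1r3b for Odc1 and Ugp2 for Azin1 were the genes named in both assays. The points share their libraries, and no p is given.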

How the data were processed

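The deposited values are RPKM (reads scaled by gene length and library size) for each Ensembl gene, 1 table per library, used as the authors deposited them. The submitters' processing notes name the tools edgeR, Cufflinks 2.2.1, TopHat2 2.0.11, TopHat, Bowtie2 2.2.1, cutadapt and CASAVA 1.82, and the builds GRCm38.p2 and mm10. Roles of these tools, gene models and the treatment of reads with several matches are not stated there. Per the labels' protocols, 1 lysate pool served both assays, with cycloheximide in the lysis buffer, RNase I digestion, ribosome recovery on size exclusion columns, and Ribo-Zero and ARTseq kits. Symbols, coordinates and transcripts came from GENCODE M21 (GRCm38), which named 11242 of 11306 IDs, and promoter windows from RefSeq (GRCm38.p6). RPKM times coding length came in whole steps for 75.5% to 82.9% of low footprint values and 75.8% to 84.0% of low total RNA values (tolerance 0.04 of a step, 8% by chance), which gave the approximate depths. Depth limits the precision of Sms and Oaz2 most.

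Tests used R 4.3.3 and limma 3.58.1 with a mean-variance trend on log2(RPKM + 0.1). This scale understates the change of low genes. Genes averaging 1 RPKM or more in each assay (9445) were fitted together, and Benjamini-Hochberg adjustment ran over all of them. A 24 h cosine and sine were fitted per assay, with their interaction with assay over 48 libraries for efficiency, a 12 h pair added for the 12 h test, and treat at 2-fold for mean efficiency. Fits were checked on simulated data. Footprint and total RNA libraries pair by shared lysate, and their deviations from time point means correlated across genes at r = 0.160 to 0.683, above 0.1 at 12 of 12 time points. Copies were sought with blastn 2.17.0, and figures drawn with Python 3.11.15, numpy 2.4.6, pandas 2.3.3 and matplotlib 3.10.9. RPKM is relative within a library, so a change of all transcripts together would not be seen. The members and gene lists were chosen with earlier results of these data known. All 8 members are described. Of each list, at most the 3 genes of smallest adjusted p per comparison and direction among those past its threshold are named, and for each rhythmic member the 3 genes of highest r, of which 1 is not reported here. Genes named beside these as not called were chosen after their values were seen.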

Additional observations from a re-analysis of the deposited data

How the results depend on the processing

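Calls of members (24 h rhythm 4 in footprints and 4 in total RNA, efficiency rhythm 0, mean efficiency 0 high and 3 low, 12 h 0 in total RNA) were the same counts under another scaling, quantile normalization, pseudocounts of 0.01 and 1, no filter, time as a factor where it applies, and without the pancreatic pools, both ZT18 pools, or the 3 pools with neutrophil markers (the last chosen after seeing the data). They also held in all 24 fits that left out a pool. The 12 h count in footprints was 0 to 1 over those fits, with Srm called without ZT8 replicate 1; the cause was not tested. With the replicate block, the paired fit, member calls were unchanged (0 of 8 for efficiency), while calls among all genes were 305 instead of 35. Efficiency calls among all genes were 66 with quantile normalization, 0 without the pancreatic pools, 15 without ZT18 and 21 without the neutrophil-marker pools. Calls of 12 h waves in all genes were 23 in footprints and 39 in total RNA without the pancreatic pools, and 48 in footprints without the neutrophil-marker pools. Time as a factor called 2863 genes in total RNA, against 1494.

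Projected on the fitted wave, uncalled ranges near 0 turned negative (log2). Azin1 efficiency was -0.014 with quantile normalization, -0.033 without the pancreatic pools and -0.017 to 0.13 over the fits without a pool. Sms footprints were -0.00486 without the pancreatic pools. The 12 h range in footprints of Sms was -0.022 without the pancreatic pools and -0.014 to 0.18 over the fits without a pool, and that of Sat1 was -0.025 without the neutrophil-marker pools. The 12 h range of Azin1 in total RNA was -0.051 to 0.062 over the fits without a pool, with -0.00123 without ZT2 replicate 2 and -9.33e-05 without ZT22 replicate 1. With 2 pools a time point, a single pool can set a mean, and read depth limits Sms and Oaz2.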
